A study of Mus musculus with 3 samples.

Results

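The genes described here were 10 genes of the piRNA pathway and the Tudor family, Piwil1, Piwil2, Tdrd1, Tdrd5, Tdrd6, Tdrd7, Tdrd9, Ddx4, Mael and Mov10l1, out of 21770 protein-coding genes with a canonical transcript in the annotation. They were taken by name from a list, with no threshold on a measured value, and all 10 were found. The list was made with earlier results of these data known. Levels set beside those of other genes are therefore a description and were not tested. Contacts of the splicing regulator Tra2β with their RNA were counted in 3 iCLIP libraries from testes of adult wild type mice, which the labels place in 1 group and describe as mixed cells. By the paper's methods, mincing of the testes released germ cells, which were irradiated with ultraviolet light. Tra2β was pulled down with a polyclonal antibody against Tra2b, and each cDNA end marked a crosslinked nucleotide. A crosslink below is 1 unique cDNA at 1 nucleotide on the strand of the gene. Control libraries from an input, an unspecific antibody or a Tra2b knockout were not used here. Exons and introns were therefore tested inside a library, against each other or against other stretches of the same transcript. Levels of genes were described beside each other, and exon shares were also compared between libraries. The libraries carry no measure of RNA level. A high level of crosslinks can come from much RNA, from much binding or from many cells that hold the RNA, and these cannot be told apart. An excess in exons over introns can likewise come from spliced RNA, which keeps exons and lacks introns. It was not tested apart from binding.

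PIWI-interacting RNAs (piRNAs) are small RNAs of animal germ cells that guide PIWI proteins to silence transposons and, in the adult testis, to act on other transcripts of meiotic and haploid cells. Long precursor transcripts are cut and trimmed in granules of the germ cell cytoplasm, the nuage, which is built by Tudor domain proteins that hold PIWI proteins by their methylated arginines and by RNA helicases. Tra2β is a nuclear SR-like protein known to bind RNA rich in GAA and to promote the splicing of many exons that it binds.

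The libraries held 348033, 619571 and 488719 crosslinks in replicates 1, 2 and 3, of which 85.3%, 74.1% and 87.7% fell in genes. Replicate 2, the deepest, had the lowest share of crosslinks in exons over all genes, 26.9% within canonical transcripts against 43.1% and 55.7% in replicates 1 and 3. The labelled tissue was checked against its markers by exonic crosslinks per kb of canonical exon, scaled to 1000000 crosslinks in genes of the library (CPM per kb). The 10 germ cell markers had a median of 56.0 on this scale, from Tnp1 at 985 ± 776 (SD, n = 3) down to Stra8 at 6.73 and Zbtb16, with 1 exonic crosslink, at 0.094. The 6 Sertoli cell markers had a median of 2.89, with Amh at 0. The 6 Leydig cell markers had a median of 4.45, led by Insl3 at 58.1 ± 51.1 (SD, n = 3). Of 6 peritubular, blood and immune markers, 4 had no exonic crosslink.

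The sequences that carried the densest exonic crosslinks are shown first, because they let the letters be read beside the counts that follow. In each gene the window of 29 nt inside 1 exon with the most crosslinks was found. Windows chosen in this way are a description of the counts and were not tested. Those with crosslinks in all 3 libraries came from Ddx4, Tdrd6, Tdrd9, Tdrd5 and Piwil1, and the Mael window is added as the one with no GAA. They are written 5′ to 3′ on the sense strand from GRCm39, and capitals mark each GAA.
Ddx4, exon 6 of 22, chr13:112770440-112770468, minus strand: ttttttaaataacaagtttGAAGAAggtg
Tdrd6, exon 1 of 5, chr17:43935955-43935983, minus strand: gagcaaaggcgaGAAcattaacgaGAAga
Tdrd9, exon 21 of 36, chr12:111997624-111997652, plus strand: ggctGAAttatatGAAGAAttGAAGAAta
Tdrd5, exon 8 of 18, chr1:156112984-156113012, minus strand: gagccaGAAcaGAAgatatacaaGAAgcc
Piwil1, exon 14 of 22, chr5:128824458-128824486, plus strand: agGAAttatGAAgcagccaactcactgat
Mael, exon 6 of 12, chr1:166054175-166054203, minus strand: actgtgttacaaaacctctataaatttat

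The Ddx4 window held 13, 1 and 11 crosslinks in replicates 1, 2 and 3, and the Tdrd6 window 10, 3 and 15. The Tdrd9 window held 1, 4 and 2, the Tdrd5 window 3, 3 and 1, the Piwil1 window 2, 2 and 2 and the Mael window 1, 0 and 4. Only the Ddx4 and Tdrd6 windows rested on more than 10 crosslinks, 25 and 28 in total. The strongest windows of Mov10l1, Tdrd1, Piwil2 and Tdrd7 held 3 or 4 crosslinks each, and all of these contained at least 1 GAA. In all, 9 of 10 windows held a GAA, where 43.9% of all 40491 windows of 29 nt in the exons of these genes do. A second GAA was present in 6 of 10, against 11.9% of all windows, and GAAGA in 4 of 10, those of Ddx4, Tdrd6, Tdrd9 and Tdrd5, against 6.78%. With windows of 15 nt in place of 29 nt, 6 of 10 held a GAA. The share over all windows of 15 nt was not computed. In Piwil1, Tdrd1, Tdrd7 and Tdrd9 the strongest window of 15 nt did not overlap that of 29 nt.

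Crosslinks of the 10 genes together numbered 356, 271 and 649 in exons and 344, 440 and 438 in introns in replicates 1, 2 and 3. They made up 0.236%, 0.155% and 0.254% of the crosslinks in genes. Exons held 50.9% of the replicate 1 crosslinks, with a 95% Clopper-Pearson interval from 47.1 to 54.6. In replicate 2 they held 38.1% (34.5 to 41.8) and in replicate 3 they held 59.7% (56.7 to 62.6). Tdrd6 and Ddx4 alone supplied 59.3%, 48.7% and 63.0% of the exonic crosslinks, so sums over the group follow these 2 genes. On the opposite strand the exons held 0, 7 and 0 crosslinks and the introns 13, 27 and 9. The antisense density was 0.151 crosslinks per kb of exon against 27.6 on the sense strand, and 0.105 against 2.63 per kb of intron, summed over the libraries. It does not measure unspecific crosslinks on the sense strand, for which no control library was used. Of the 49 antisense crosslinks in introns, 26 lay in Mov10l1.

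Levels were compared in the same unit. The median of the 10 genes was 14.7 CPM per kb of exon, against 0.508 over all protein-coding genes, of which 8052 had no exonic crosslink, and 1.82 over those with any. As the genes were listed with earlier results of these data known, this gap was not tested. The order ran from Ddx4 over Tdrd6, Piwil1, Mael, Tdrd9, Mov10l1, Tdrd1, Tdrd5 and Piwil2 to Tdrd7. Every one of the 9 neighbours in this order had overlapping values, and for 4 of them the order was the same in each library. Without replicate 2, Mael stood above Piwil1, and without replicate 1 or without replicate 2, Tdrd7 stood above Piwil2. Intronic levels lay much closer together, with means of 1.54 to 4.48 CPM per kb of intron, against a median of 0.155 over all genes.

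**Figure D1:**
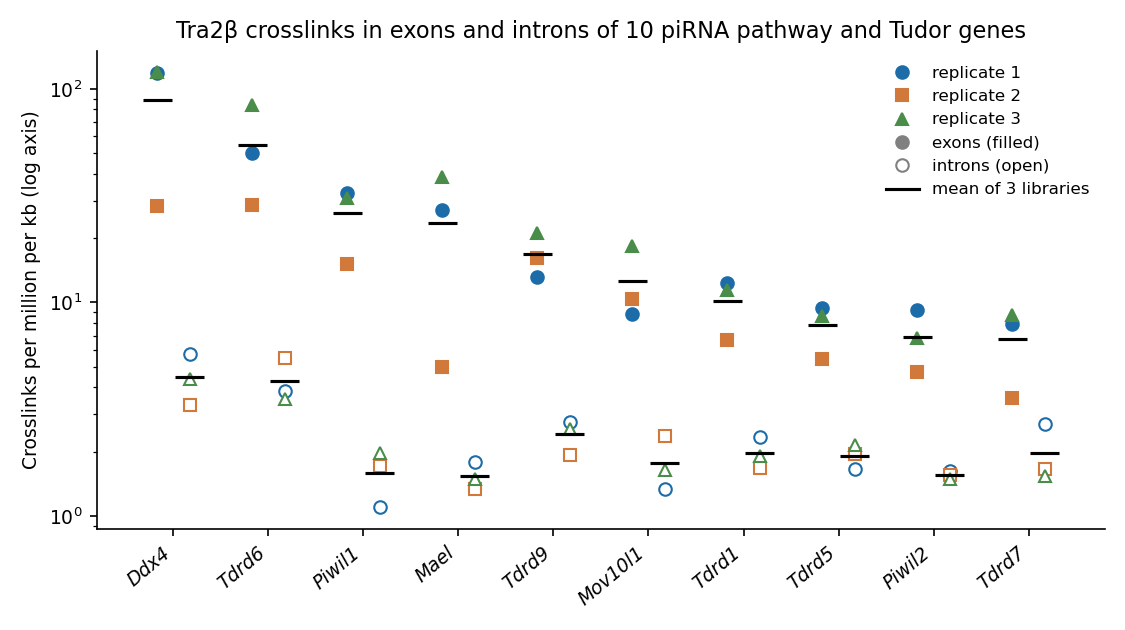
Crosslinks per 1000000 crosslinks in genes and per kb (log axis) for the 10 genes, ordered by mean exonic level; filled symbols are exons, open symbols introns, 1 symbol per library, and black lines the mean of 3 libraries. Exonic levels fall from 88.6 in Ddx4 to 6.75 in Tdrd7, while intronic means stay between 1.54 and 4.48, and replicate 2 (squares) is the lowest exonic value in 8 of 10 genes.

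Whether crosslinks favoured exons was tested gene by gene. The exonic crosslinks were compared with the share that exons make up of the transcript length, by a two-sided exact binomial test in each library with Benjamini-Hochberg adjustment over 6907 genes with at least 20 crosslinks. A call needed an adjusted p below 0.05 and the same sign in every library. Of the 10 genes, 8 were called higher in exons and 0 lower. Over all tested genes 36.5% were called higher and 0.029% lower. The 10 genes held 111 to 560 crosslinks each, and the call depends on that number, since 69.1% of all genes with at least 100 crosslinks were called. The median log2 ratio of exonic over intronic crosslinks per nt was 2.81 over the 10 genes and 2.50 over all tested genes. With at least 100 crosslinks as the minimum, 9 of the 10 were called. The 2 genes not called with the minimum of 20 were Mael and Tdrd7, and in both the test was missed in replicate 2.

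**Figure D2:**
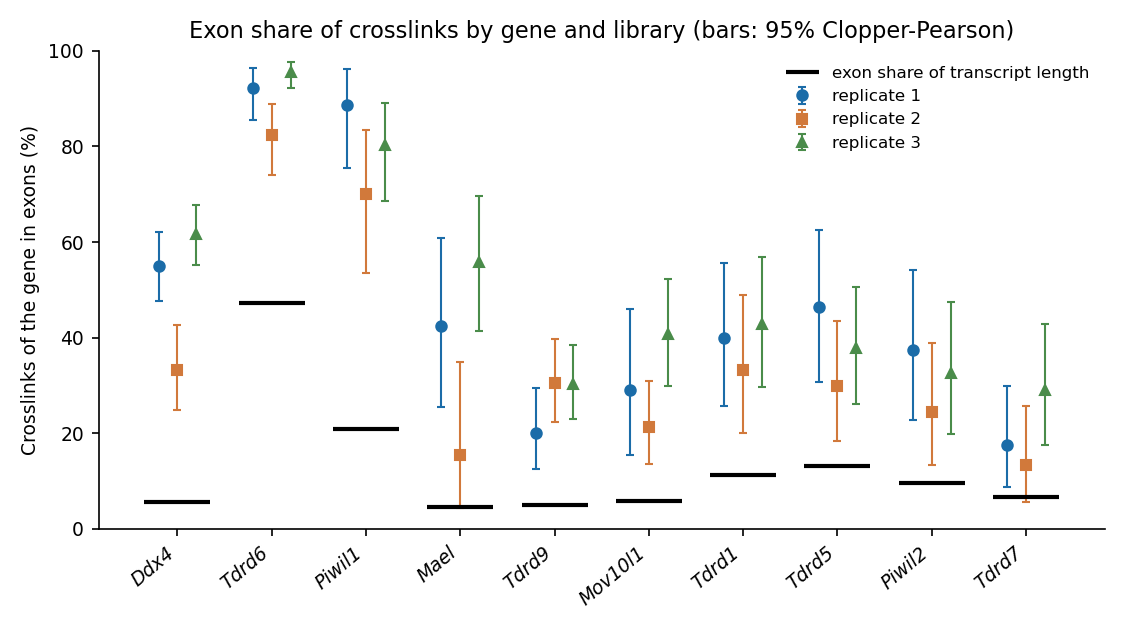
Share of the crosslinks of each gene that lay in exons (percent), by library, with 95% Clopper-Pearson intervals that cover counting error only; black lines mark the share of the transcript length made up by exons. All 30 values lie above the line of their gene, Tdrd6 and Piwil1 have the highest shares, and replicate 2 is the lowest in 9 of 10 genes.

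Among the PIWI proteins, Piwil1 (MIWI, the PIWI protein of pachytene spermatocytes and round spermatids; chr5:128813238-128832538, plus strand) had 39, 28 and 53 exonic crosslinks in replicates 1, 2 and 3 and 5, 12 and 13 intronic ones. Its exonic level was 32.7, 15.2 and 30.8 CPM per kb, a mean of 26.2 ± 9.61 (SD, n = 3), at rank 679 of 21770 genes. The exons took 88.6%, 70.0% and 80.3% of its crosslinks although they make up 20.8% of its length. The log2 ratio of exonic over intronic crosslinks per nt was 3.93 ± 0.83 (SD, n = 3), and the largest adjusted p was 3.53e-10 (exact binomial test). Crosslinks were spread over 19 of its 22 exons. The last exon, of 1282 nt, had the most, 12, 5 and 24, which is 34.2% of exonic crosslinks on 31.9% of exonic length. Its 3′ UTR and its coding sequence were about equally dense, at 30.8 and 31.7 crosslinks per kb summed over the libraries. Exon 14, which holds the window shown above, had 4, 3 and 5 crosslinks in 188 nt, a log2 density of 1.35 ± 0.14 over the other exons (largest adjusted p = 0.901, exact binomial test, no call).

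Piwil2 (MILI, the PIWI protein present from fetal gonocytes on; chr14:70609365-70666565, minus strand) had much lower exonic counts, 15, 12 and 16, beside 25, 37 and 33 intronic crosslinks. Its exonic level was 9.19, 4.75 and 6.79 CPM per kb, a mean of 6.91 ± 2.22 (SD, n = 3). The values of Piwil1 and Piwil2 did not overlap. Exons took 37.5%, 24.5% and 32.7% of Piwil2 crosslinks on 9.61% of its length, a log2 ratio of 2.12 ± 0.44 and the largest adjusted p was 0.00534 (exact binomial test). No exon of Piwil2 had crosslinks in all 3 libraries. The exon with the most was the last, exon 23, with 2, 0 and 8 in 2521 nt. Intron 20, the longest stretch with many crosslinks at 12975 nt, had 11, 16 and 11, which is 40% of the intronic crosslinks on 25.1% of intron length and was not called.

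Among the Tudor proteins Tdrd6 had the highest mean exonic level, and the other 4 lay between 6.75 and 16.9 CPM per kb. Tdrd6 (a scaffold of the chromatoid body, the nuage of round spermatids; chr17:43926226-43941190, minus strand) had 105, 93 and 255 exonic crosslinks, the most of the 10 genes in total, and 9, 20 and 12 intronic ones. Its exonic level was 50.1, 28.7 and 84.2 CPM per kb, a mean of 54.3 ± 28.0 (SD, n = 3), at rank 248. Exons took 92.1%, 82.3% and 95.5% of its crosslinks, but they also make up 47.2% of its length, the highest such share of the group. The log2 ratio of exons over introns was 3.50 ± 1.09 (largest adjusted p = 2.64e-13, exact binomial test).

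Nearly all of the Tdrd6 crosslinks lay in exon 1, which is 6193 nt long (chr17:43934998-43941190) and carries most of the coding sequence. It had 98, 89 and 239 crosslinks, 94.0% of the exonic total on 87.7% of exonic length. Its log2 density over the other 4 exons was 1.13 ± 0.31, with adjusted p of 0.879, 0.261 and 0.0487 in replicates 1, 2 and 3 by the exact binomial test, so it missed the call. Within exon 1 the crosslinks were uneven. When the exon was divided into 10 parts of equal length, a division made after the values were seen, part 9 (nt 4955 to 5573) held 27, 16 and 50 crosslinks, 21.8% of the total. Part 7 (nt 3716 to 4335) held 16, 17 and 36, or 16.2%, and parts 7 and 9 were the highest in each library. Part 1 held 1, 4 and 5, or 2.35%, and its 619 nt contain 2 GAA where part 9 contains 18. Part 10, with 22 GAA, held 5, 7 and 17 crosslinks. The window of Tdrd6 shown above lies in part 9. It includes nt 5224 of the exon, 1 of 3 exonic nucleotides of the 10 genes crosslinked in all 3 libraries, with 2, 1 and 2 crosslinks.

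**Figure D3:**
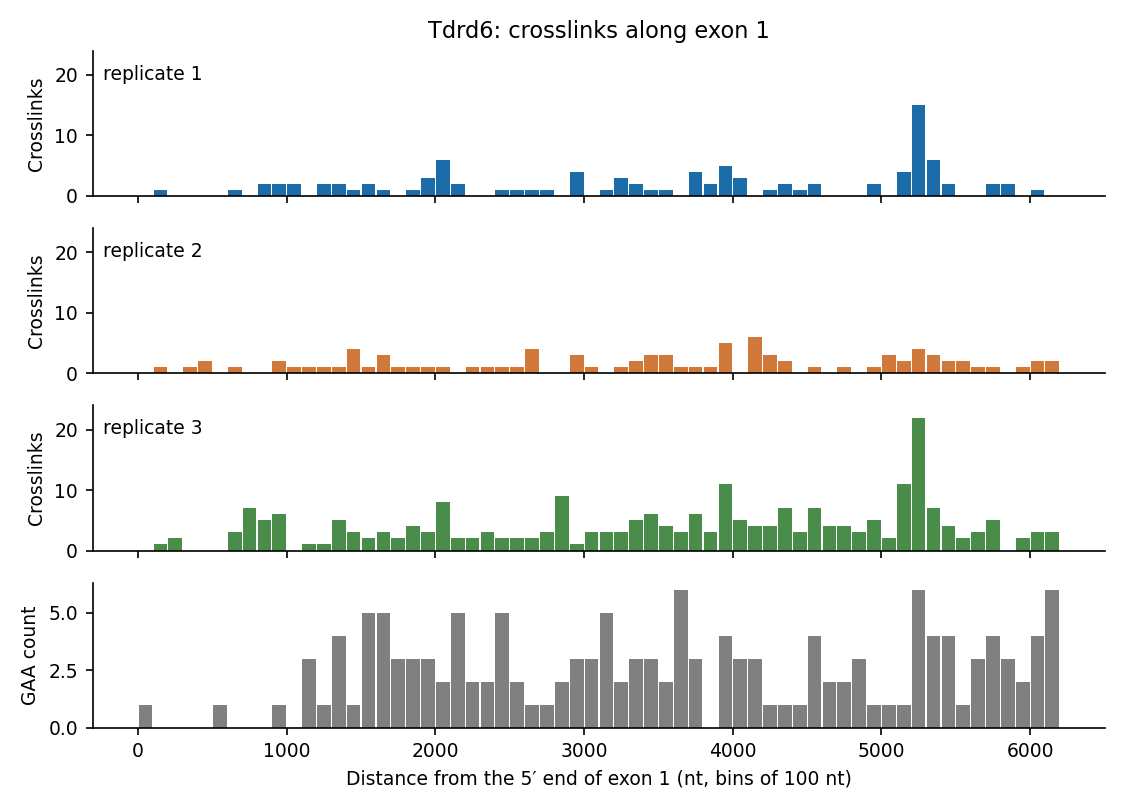
Crosslinks per 100 nt along exon 1 of Tdrd6 in each library, with the number of GAA in the same bins below (distance from the 5′ end of the exon in nt). The bin from 5201 to 5300 nt is the highest in replicates 1 and 3 with 15 and 22 crosslinks, and holds 4 in replicate 2; it contains 6 GAA.

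Tdrd9 (a helicase with a Tudor domain that works with the PIWI protein MIWI2; chr12:111937965-112035290, plus strand) had 19, 36 and 44 exonic and 76, 82 and 101 intronic crosslinks. It was the exception to the low exon shares of replicate 2. Its exon share was 20% in replicate 1, 30.5% in replicate 2 and 30.3% in replicate 3, on 4.97% of length. The exonic level was 13.2, 16.2 and 21.2 CPM per kb, a mean of 16.9 ± 4.04 (SD, n = 3), and the log2 ratio of exons over introns was 2.81 ± 0.46 (largest adjusted p = 9.73e-07, exact binomial test). Exon 4 had the most crosslinks of its 36 exons, 2, 5 and 5 in 222 nt. Exon 21, a 117 nt exon whose window above holds 5 GAA, had 2, 4 and 3, a log2 density of 2.26 ± 0.43 over the other exons. It was above 0 in 3 of 3 libraries, yet its largest adjusted p was 0.789 by the exact binomial test and it went uncalled. Only 1 crosslink lay in its 3′ UTR.

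Tdrd1 (a partner of MILI in the intermitochondrial cement; chr19:56814641-56858444, plus strand) had 18, 15 and 24 exonic and 27, 30 and 32 intronic crosslinks. Its exonic level of 12.3, 6.65 and 11.4 CPM per kb gave a mean of 10.1 ± 3.05 (SD, n = 3). The exon share was 40%, 33.3% and 42.9%, with intervals that overlapped, and the log2 ratio of exons over introns was 2.33 ± 0.29 (largest adjusted p = 0.000281, exact binomial test). The last exon, exon 26, had 4, 3 and 6 crosslinks in 1310 nt, and exon 2 had 4, 4 and 2 in 333 nt. Neither was called. Intron 1 had the most of its introns, 10, 9 and 6 in 4776 nt.

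Tdrd5 (a nuage protein needed for silencing of retrotransposons and for spermiogenesis; chr1:156079844-156131234, minus strand) had 19, 17 and 25 exonic and 22, 40 and 41 intronic crosslinks. Its exonic level was 9.44, 5.46 and 8.60 CPM per kb, a mean of 7.83 ± 2.10 (SD, n = 3), and the log2 ratio of exons over introns was 2.01 ± 0.50 (largest adjusted p = 0.00330, exact binomial test). With the exons of all its transcripts in place of the canonical ones the call was lost, at an adjusted p of 0.177. Tdrd5 held the only exon of the 208 in these genes that was called against the rest of its transcript. Exon 18, the last exon (chr1:156079844-156083415, 3572 nt), had 1, 1 and 2 crosslinks where the other exons had 18, 16 and 23. Its log2 density was -3.59 ± 0.20 (SD, n = 3), and the largest adjusted p was 0.00501 (exact binomial test). Over all 58715 exons tested, 0.346% were called lower and 0.215% higher, and none of the exons of the 10 genes was called higher.

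Most of Tdrd5 exon 18 is 3′ UTR. The 3303 nt of 3′ UTR held 1, 1 and 1 crosslinks and the 3120 nt of coding sequence 18, 16 and 24. With coding bases only, the exon had a log2 density of -1.34 and was not called (adjusted p of 1, exact binomial test), on a short stretch with few crosslinks. At the other end of the range, exon 8 (209 nt) had 4, 6 and 2 crosslinks, 19.7% of the exonic total on 3.08% of the length. The log2 density was 3.03 ± 1.21, the highest mean of any of the 208 exons, and it passed in replicate 2 alone (adjusted p = 0.000786, against 0.108 and 0.797 in replicates 1 and 3, exact binomial test). Its window shown above holds 3 GAA and 1 GAAGA.

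Tdrd7 (a scaffold of the chromatoid body that is also known from the lens; chr4:45972233-46035307, plus strand) had the lowest exonic level, 7.90, 3.58 and 8.76 CPM per kb, a mean of 6.75 ± 2.78 (SD, n = 3). It had 10, 7 and 16 exonic crosslinks against 47, 45 and 39 intronic ones. The exon share of 17.5%, 13.5% and 29.1% was the lowest of the 10 genes by mean, on 6.76% of the length. The log2 ratio of exons over introns was 1.77 ± 0.69 and not called, because replicate 2 gave an adjusted p of 0.141 by the exact binomial test. Without replicate 2 the largest adjusted p was 0.00979. Exon 7, of 584 nt, held 4, 2 and 4 of its exonic crosslinks. The levels of Tdrd1, Tdrd5 and Tdrd7 overlapped, and each of the 3 had its lowest value in replicate 2.

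Of the helicases, Ddx4 (the mouse Vasa homologue, a germ cell marker and nuage component; chr13:112734867-112789009, minus strand) had the highest exonic level of the 10 genes. Its exons held 106, 39 and 154 crosslinks in replicates 1, 2 and 3 and its introns 87, 78 and 96. The exonic level was 118, 28.2 and 119 CPM per kb, a mean of 88.6 ± 52.3 (SD, n = 3), at rank 108 of 21770. Replicates 1 and 3 lay close together and replicate 2 about 4 times lower, while the intronic level of 5.73, 3.32 and 4.38 moved less. Exons took 54.9%, 33.3% and 61.6% of the crosslinks on 5.57% of the length. The log2 ratio of exons over introns was 4.07 ± 0.87, close to that of Piwil1, which was higher in replicates 1 and 2, and the largest adjusted p was 7.46e-19 (exact binomial test).

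Every one of the 22 exons of Ddx4 had a crosslink and 16 had crosslinks in all 3 libraries. In the 10 genes together, Ddx4 included, 33 of 208 exons had none and 49 had all 3 libraries. These counts were not corrected for depth, and Ddx4 held 299 of the 1276 exonic crosslinks of the 10 genes. The exonic crosslinks of Ddx4 lay mainly in a run of short exons in the 5′ part of the transcript. Exons 2 to 12, a block drawn after the values were seen, measure 733 nt or 24.3% of the exonic length and held 57, 30 and 86 crosslinks, which is 53.8%, 76.9% and 55.8% of the exonic total. Exons 13 to 21, with 1382 nt, held 37, 9 and 48. Exon 22, with 699 nt, held 11, 0 and 20. In each library, exons 2 to 12 were thus denser per kb than the rest, by 77.8 against 26.8 crosslinks per kb for exons 13 to 21 in replicate 1, 40.9 against 6.51 in replicate 2 and 117 against 34.7 in replicate 3. GAA occurred 4.91 times per 100 nt in exons 2 to 12, 2.53 times in exons 13 to 21 and 2.00 times in exon 22. Across the 22 exons, which share their libraries and transcript, Spearman's rho between GAA per 100 nt and crosslinks per kb was 0.729, and over all 208 exons of the 10 genes it was 0.301.

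**Figure D4:**
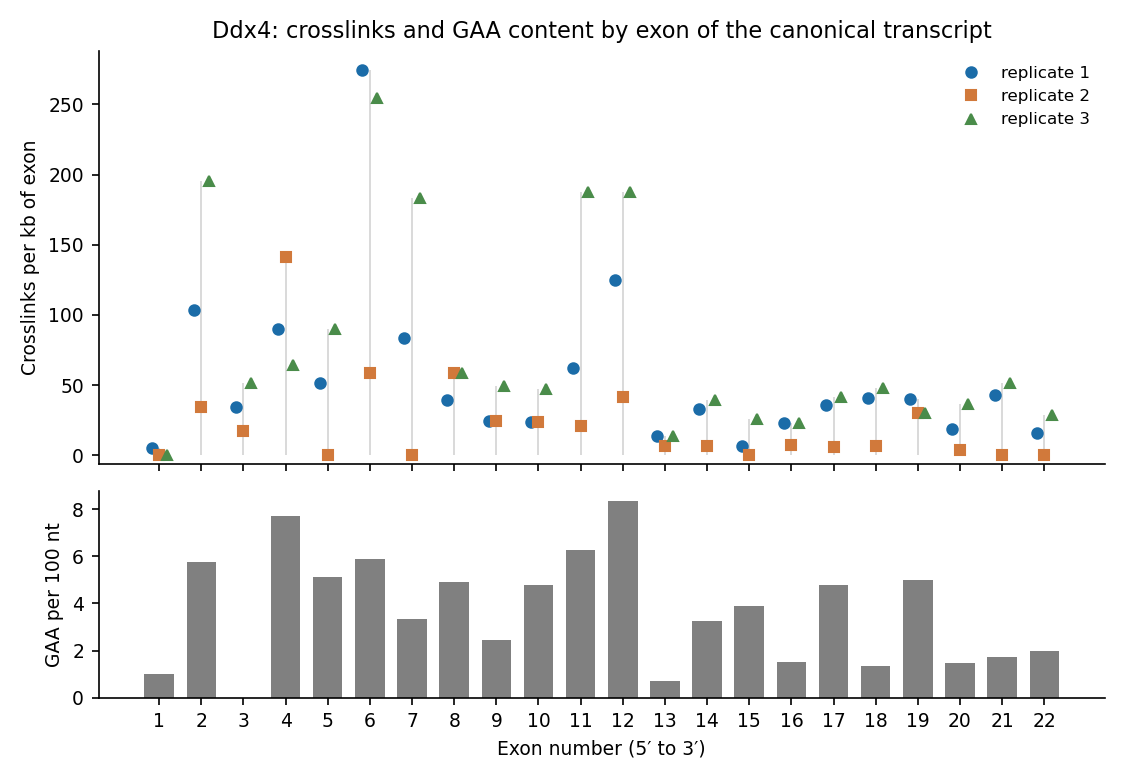
Crosslinks per kb in each of the 22 exons of Ddx4 by library (upper panel; thin lines join the 3 libraries) and GAA per 100 nt of the same exons (lower panel). Exon 6 is the densest in replicates 1 and 3 with 14 and 13 crosslinks in 51 nt, exon 4 in replicate 2 with 11 crosslinks in 78 nt. As a block, exons 13 to 21 are lower than exons 2 to 12 in each library, though single exons overlap.

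Exon 6 of Ddx4, of 51 nt, had 14, 3 and 13 crosslinks, and the remaining exons had 92, 36 and 141. Its log2 density was 2.71 ± 0.41 (SD, n = 3) and above 0 in each library, but it missed the call because of replicate 2, with an adjusted p of 0.366 there (exact binomial test). Without replicate 2 the largest adjusted p was 0.000176. Exon 4, of 78 nt, showed the opposite, with 7, 11 and 5 crosslinks and a low adjusted p in replicate 2 alone (8.64e-07, exact binomial test). Exon 2, of 87 nt, had 9, 3 and 17. Exon 22 had a log2 density of -2.30 ± 1.98 with adjusted p of 0.0636, 0.00444 and 0.0480 by the exact binomial test, so it was missed in replicate 1 alone.

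Mov10l1 (the helicase that hands piRNA precursors to processing; chr15:88867085-88939371, plus strand) had 11, 20 and 33 exonic and 27, 74 and 48 intronic crosslinks. Its exonic level was 8.86, 10.4 and 18.4 CPM per kb, a mean of 12.6 ± 5.13 (SD, n = 3), and the log2 ratio of exons over introns was 2.81 ± 0.66 (largest adjusted p = 2.60e-05, exact binomial test). Exon 15 had the most crosslinks, 0, 3 and 6 in 296 nt. Intron 16 (chr15:88902453-88904463) had 2, 31 and 1 crosslinks, almost all in replicate 2. Of these, 0, 27 and 1 lay in the annotated snRNA gene Gm23737 (chr15:88903424-88903582, plus strand), which may share reads with near-identical copies elsewhere. With genes nested in introns left out, Mov10l1 had 27, 47 and 47 intronic crosslinks and an exon share of 28.9%, 29.9% and 41.3%, where it had been 28.9%, 21.3% and 40.7%.

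Mael (Maelstrom, a nuage protein with an HMG box; chr1:166028770-166066331, minus strand) had 14, 4 and 29 exonic and 19, 22 and 23 intronic crosslinks. Its exonic level varied most among the libraries in proportion to its mean, at 27.0, 4.98 and 38.7 CPM per kb with a mean of 23.6 ± 17.1 (SD, n = 3). It ranked 688 and 665 of 21770 genes in replicates 1 and 3 and 2634 in replicate 2. The log2 ratio of exons over introns was 3.55 ± 1.37, but with 4 exonic crosslinks replicate 2 gave an adjusted p of 0.0591 by the exact binomial test and Mael was not called. Without replicate 2 the log2 ratio was 4.31 and the largest adjusted p 5.75e-10. Exon 8, of 142 nt, had 2, 0 and 8 crosslinks, the most of its 12 exons.

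Introns of the same genes were compared with the other introns of each transcript in the same way. Of 198 introns, 43 had no crosslink, 2 were called higher and 1 lower, where over all 75071 introns tested 0.368% were called higher and 0.163% lower. Intron 6 of Ddx4 (chr13:112765432-112770418, 4987 nt), which directly follows exon 6, had 22, 21 and 22 crosslinks of 87, 78 and 96. Its log2 density was 1.65 ± 0.16 (SD, n = 3) and its largest adjusted p 0.0136 by the exact binomial test. Before scaling to library depth, this count was nearly equal in the 3 libraries, unlike that of the exon before it. Intron 17 of Ddx4 (chr13:112741167-112748508, 7342 nt) had 2, 1 and 3 crosslinks, a log2 density of -2.60 ± 0.48 (largest adjusted p = 0.0370, exact binomial test). Intron 6 of Tdrd5 (chr1:156115952-156120896, 4945 nt) had 10, 12 and 17, a log2 density of 2.36 ± 0.49 (largest adjusted p = 0.0338, exact binomial test). Of its 39 crosslinks 6 lay in A430050A11Rik, a nested gene that the annotation lists as still to be tested by experiment. No intron of the other 8 genes was called. Of those not given above, intron 6 of Tdrd7 (10592 nt) had 9, 10 and 11, intron 9 of Tdrd9 (5689 nt) 7, 11 and 14 and intron 5 of Mael (7474 nt) 8, 9 and 9. Intron 3 of Tdrd6 (3193 nt) had 6, 12 and 8, and intron 1 of Piwil1 (1094 nt) 0, 3 and 3. The outer 100 nt at both ends of introns made up 8.25% of intronic bases and had 11.3%, 8.41% and 9.82% of intronic crosslinks in replicates 1, 2 and 3.

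By region of the transcript, coding sequence of the 10 genes held 320, 252 and 576 crosslinks in 33150 nt. The 3′ UTRs held 29, 13 and 65 in 11382 nt and the 5′ UTRs 7, 6 and 8 in 1783 nt. Summed over the libraries this was 34.6, 9.40 and 11.8 crosslinks per kb in the same order. On these sums coding sequence was denser than 3′ UTR in 10 of 10 genes, by 123 against 39.02 crosslinks per kb in Ddx4, 68.4 against 29.2 in Tdrd6 and 32.3 against 5.71 in Mael, with the smallest gap in Piwil1. In single libraries the 3′ UTR was denser in Piwil1 in replicate 3 and in Tdrd7 in replicate 2. The 3′ UTRs of Tdrd5, Tdrd7, Tdrd9, Mael and Mov10l1 held only 3, 2, 1, 2 and 2 crosslinks in total. The share of all genes with denser coding sequence was not computed. Of 12 annotated exons inside the canonical spans that do not overlap a canonical exon, 8 had a crosslink and none had more than 4. All 8 overlap at the start of Tdrd7 and share these crosslinks.

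The 3 libraries were then compared for these genes. Over genes, the order of exonic levels was similar, with Spearman's rho of 0.758 between replicates 1 and 2, 0.855 between 1 and 3 and 0.745 between 2 and 3 (n = 10 genes, which share their libraries). Over the 208 exons rho of crosslinks per nt was lower, 0.359, 0.448 and 0.209 in the same order. Within Ddx4, replicates 1 and 3 ranked the 22 exons almost alike, with rho of 0.912, and replicate 2 differed from both, with 0.492 and 0.471. Replicate 2 held 39 exonic crosslinks of Ddx4 against 106 and 154 in replicates 1 and 3, and rho was not corrected for this. Within Piwil1, where exons hold few crosslinks, rho was 0.471 between replicates 1 and 2, 0.253 between 1 and 3 and 0.265 between 2 and 3.

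The overlap of the libraries was also counted at single nucleotides. The exons of the 10 genes had 1149 crosslinked positions, of which 66 (5.74%) were found in at least 2 libraries and 3 in all of them. The same share over the exons of all genes was not computed. Whether 5.74% is low or high for these libraries is therefore not known. Replicates 1 and 3 shared 45 positions, replicates 1 and 2 shared 13 and replicates 2 and 3 shared 14. Ddx4 and Tdrd6 supplied 25 and 28 of the 66. Besides nt 5224 of Tdrd6 exon 1, the positions found in all libraries were nt 28 of Ddx4 exon 12 and nt 60 of Tdrd9 exon 11, each with 1 crosslink a library. In introns 5 of 1196 positions were shared, between replicates 1 and 3 in each case.

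The exon share of a gene was compared between libraries by a two-sided Fisher's exact test, adjusted over all 6907 genes and the 3 pairs. Of 30 tests on the 10 genes, 4 passed, and replicate 2 was the lower library in each. Ddx4 differed between replicates 1 and 2 (adjusted p = 0.00625, exact test) and between 2 and 3 (3.41e-05). Tdrd6 differed between replicates 2 and 3 (0.00197, exact test), as did Mael (0.0135). Among all genes, 6.01% passed between replicates 1 and 2, 2.32% between 1 and 3 and 13.1% between 2 and 3, and replicate 2 was the lower one in 399 of 415 genes and in 896 of 908. The shift of these 3 genes thus went the way that nearly all differing genes went, together with the lower exon share of the whole replicate 2 library. Its part in each result was not tested. For the 10 genes, the exon share was lowest in replicate 2 in 9 genes, and in 8 when nested genes were left out.

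Sequence around the exonic crosslinks was read on the sense strand. GAA lay wholly within 30 nt of 78.9%, 80.8% and 78.6% of the exonic crosslinks in replicates 1, 2 and 3, against 68.4% of all 46315 positions of the same exons, a ratio of 1.16 ± 0.0175 (SD, n = 3). The longer GAAGA, which contains GAA, lay near 30.9%, 34.3% and 29.4% of crosslinks against 13.9% of positions. The ratio was 2.26 ± 0.1798 (SD, n = 3) and was above 1 in 3 of 3 libraries. How much of this ratio lay between exons and how much inside them could not be told. When each crosslink was set against the positions of its own exon, a comparison added after seeing the data, the ratio of GAAGA was 1.27 ± 0.100. In a short exon, nearly every position lies within 30 nt of the same GAAGA. There the ratio inside exons is held close to 1 wherever the crosslinks fall. In Ddx4, where GAAGA was near 51.9%, 64.1% and 50% of crosslinks and 23.2% of positions, the ratio inside exons was 1.12 ± 0.0259. In Tdrd6, with its long exon 1, it was 28.6%, 35.5% and 29.02% of crosslinks against 17.5% of positions, and inside exons the ratio was 1.66 ± 0.165.

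The other 8 genes differed among themselves. Without Ddx4 and Tdrd6, also added after seeing the data, the ratio of GAAGA to all positions was 1.58 ± 0.381, and inside exons it was 1.01, 1.32 and 1.03 in replicates 1, 2 and 3. In Tdrd5, GAAGA was near 42.1%, 64.7% and 36.0% of crosslinks and 18.2% of positions, and inside exons the ratio was 1.58 ± 0.35. Piwil1, next to Tdrd6 in exonic level, had GAAGA near 2.56%, 10.7% and 7.55% of its crosslinks and 6.97% of its positions. By distance, GAAGA was most frequent just downstream. It started at 0 to 9 nt after the crosslinked nucleotide for 10.7%, 12.5% and 7.24% of the crosslinks of all 10 genes, against 2.77% of positions, and at 10 to 19 nt for 7.02%, 11.4% and 7.70%, against 2.66%. At 1 to 10 nt upstream it was 4.78%, 7.38% and 5.55% against 2.77%. At 30 to 39 nt downstream it was 3.37%, 3.69% and 2.77% against 2.29%, and at 40 to 49 nt 2.53%, 1.48% and 2.77% against 2.26%. Farther upstream it stayed above the positions in each library. At -40 to -31 nt it was 5.62%, 3.32% and 3.85% against 2.41%. At -60 to -51 nt it was 2.25%, 5.90% and 3.39% against 2.06%. The profile is set against all positions of the exons, so it includes differences between exons.

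**Figure D5:**
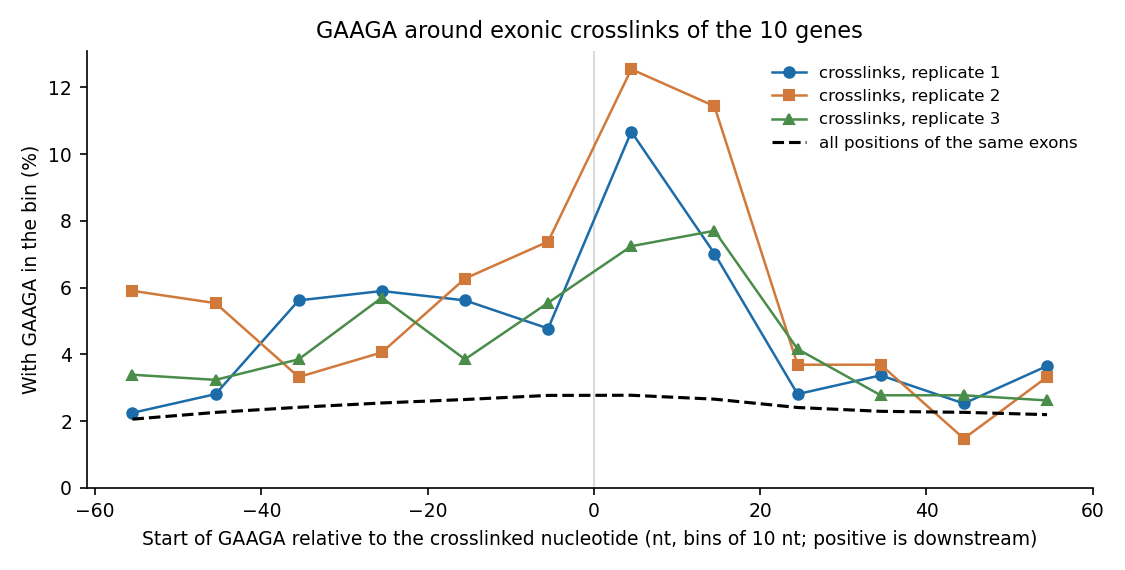
Percent of exonic crosslinks of the 10 genes with a GAAGA that starts in each bin of 10 nt relative to the crosslinked nucleotide (positive is downstream), by library, and the same for all positions of the exons (dashed). The bins from 0 to 19 nt downstream hold the highest values in each library, 7.02% to 12.5%, above 2.77% and 2.66% of positions.

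Other genes of the pathway were read from a list of 23, which holds further Tudor proteins, nucleases, the methyltransferase Henmt1 and transcription factors of piRNA loci. Their median exonic level was 3.25 CPM per kb, against 14.7 for the 10 genes described above, a gap that was not tested for the same reason as before. Only 13 had at least 20 crosslinks, and of these 6 were called higher in exons and 0 lower. Over all tested genes 36.5% were called higher. They were Rnf17, Stk31, Mybl1, Tcfl5, Tex15 and Tdrd12. The highest exonic levels were 32.1 ± 22.1 in Rnf17 (a Tudor protein of germ cells), 23.4 ± 15.3 in Stk31 (a kinase with a Tudor domain), 19.98 ± 10.3 in Mybl1 (A-MYB, which drives transcription of pachytene piRNA precursors), 18.7 ± 11.1 in Tcfl5 (a transcription factor of meiotic germ cells) and 18.1 ± 4.59 in Tex15 (a testis protein needed for piRNA-guided silencing), each with its SD over 3 libraries. Spocd1 had no exonic crosslink and 4 intronic ones. Of the Tudor genes known mainly outside the pathway, Akap1 (a mitochondrial anchor of protein kinase A) at 30.5 ± 16.7 and Tdrd3 at 6.01 ± 3.78 were called higher in exons, and Snd1 (a nuclease with a Tudor domain) at 0.737 ± 0.654 and Smn1 (part of the machinery that assembles snRNPs) at 4.89 ± 0.932 were not. These 2 of 4 also stand beside the 36.5% of all tested genes.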

How the data were processed

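In all, 3 biological replicates of Tra2β iCLIP from adult testis formed 1 group. The authors processed reads with iMAPS, and their processing notes name Trim Galore 0.6.7, Bowtie 1.3.1, STAR 2.7.9a and UMI-tools 1.1.2. The deposited values are whole-number counts of unique cDNAs per crosslinked nucleotide and strand on mm39 (GRCm39), neither normalised nor pooled. The handling of reads that map to several places is not given in the sources used here. All sequence names and positions were checked against GRCm39.

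Crosslinks were assigned by strand to exons and introns of the Ensembl canonical transcripts in GENCODE release M39, so overlapping genes on 1 strand share counts. Levels were scaled to crosslinks in genes (CPM per kb). Exact binomial and Fisher tests (Python 3.11.15, scipy 1.17.1, numba 0.67.0) were run over all genes, exons or introns with at least 20 crosslinks, Benjamini-Hochberg adjusted, and called at 0.05 in all 3 libraries. Log2 densities used 0.5 added crosslinks. Each test was run per library, so its p covers counting error inside that library, and cDNAs of 1 RNA are treated as independent. Levels of genes were not tested against each other, since the smallest two-sided p of the exact sign-flip test with 3 libraries is 0.25. Code was tested on simulated data. A count of 0 allows up to 3 crosslinks, which is 8.62, 4.84 and 6.14 CPM of the library total in replicates 1, 2 and 3. Intervals are 95% Clopper-Pearson and cover counting error only.

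All 10 genes are named, with the exon and intron holding the most crosslinks and every called one; further exons of Ddx4, Tdrd1, Tdrd9 and Piwil1 were named after their values were seen. Of the other lists, the counts, the 5 highest genes and any without crosslink are given; Tdrd15 of the Tudor list was not found in the annotation. The members and lists were chosen with earlier results of these data known. Alternatives were single libraries left out, positions in place of cDNAs, other minimum counts, other exon definitions, scalings, flanks and windows.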

Additional observations from a re-analysis of the deposited data

How the results depend on the processing

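No result reversed. The count of the 10 genes called higher in exons lay between 7 and 10 over its alternatives, and the count of genes whose exon share differed between libraries was 3 with cDNAs and 3 with positions. The count of exons called was 1. It was 1 to 2 with 1 library left out, where leaving out replicate 1 added exon 22 of Ddx4 and leaving out replicate 2 added exon 6 of Ddx4. With at least 100 exonic crosslinks as the minimum it was also 1 but a different exon, since Tdrd5 was no longer tested and exon 22 of Ddx4 passed (adjusted p = 0.0273, exact binomial test). It was 0 with internal exons only and 0 with coding bases only, settings under which 0.0406% and 0.0479% of all exons were called against 0.560%. The count of introns called was 3, and 1, intron 6 of Ddx4, with no minimum above 1 crosslink, where the adjusted p was 0.0760 for intron 17 of Ddx4 and 0.0685 for intron 6 of Tdrd5 (exact binomial test). The GAAGA ratio of 2.26 was 2.90 within 10 nt, 1.84 within 50 nt, 1.27 inside the own exon and 1.58 without Ddx4 and Tdrd6. No paired analysis was possible because the libraries form 1 group. Depth limits single exons. Outside Ddx4 and exon 1 of Tdrd6, most exons had a few crosslinks per library, so a missing call there says little, and the windows of Mov10l1, Tdrd1, Piwil2 and Tdrd7 rest on 3 or 4 crosslinks.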
